A study of Rattus norvegicus with 22 samples.

Results

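The nuclear genes of oxidative phosphorylation were followed across RNA sequencing libraries of rat ventral cervical spinal cord. Members were taken by symbol from the gene count table: Nduf genes of series a, b, c, s or v, the Sdh genes a to d, all Uqcr genes, Cox genes of families 4 to 8 and all Atp5 genes. This gave 88 of 32883 genes, with 85 different symbols, since Ndufv3, Uqcrb and Cox6b1 each had 2 gene identifiers. The symbols include 1 named as a pseudogene, Cox6c-ps1. By symbol, 37 members belonged to complex I, 4 to complex II, 9 to complex III, 22 to complex IV and 16 to complex V. Ndufa4 and Ndufa4l2 were counted with complex IV, where their proteins are found.

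The study set adult Sprague-Dawley rats of either sex with intact gonads against rats whose gonads had been removed, in the cord segments C3 to C6 that hold the phrenic motor pool. There were 5 intact males, 5 males after gonadectomy (GDX), 6 intact females and 6 females after ovariectomy (OVX), with 1 library per rat. Rats were 3 to 4 months old, females were virgin, and all gonadectomized rats received isoflurane and buprenorphine for surgery and were used 2 weeks later. Intact rats were age-matched, and a sham operation is not mentioned for them. The total per library ranged from 12371756 to 17571887 counts. The libraries fell into a long and a short class of average input fragment size, and the long class held intact rats alone, 3 of the 5 males (rats 1, 3 and 6) and 4 of the 6 females (rats 2, 3, 5 and 6). In the pooled comparisons of gonadectomized with intact rats, class and surgery therefore cannot be told apart. Values from short-class libraries alone, or from fits over both classes with the class as a term, are printed beside the pooled ones for most members named. Within a sex both kinds of fit set the gonadectomized rats against the same 2 short-class intact rats, so they are not separate checks.

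Oxidative phosphorylation is carried out in the inner mitochondrial membrane. Complexes I and II take electrons from NADH and succinate, complex III passes them through cytochrome c to complex IV, which reduces oxygen, and the proton gradient built by complexes I, III and IV drives ATP synthesis by complex V. All subunits of complex II and most of the others are encoded in the nucleus, while the mitochondrial genome supplies a small set of core subunits. Neurons, and large motor neurons among them, depend heavily on this pathway, and complex IV carries several subunits that come in tissue-specific isoforms.

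The members held an almost constant place in the libraries. Of the 88 members, 78 passed the filter on low counts over all 22 rats, and their mean level was 5.47 ± 0.0447 on the log2 scale of CPM, counts scaled by library size (SD, n = 22). It ran from 5.43 to 5.50 in intact males, 5.40 to 5.50 in GDX males, 5.43 to 5.54 in intact females and 5.38 to 5.55 in OVX females. The 4 ranges overlap widely, and the highest and lowest of the 22 rats, both OVX females (rats 5 and 6), differ by a factor of 1.12. The median member had a spread within groups of 0.108 on the log2 scale, beside 0.153 for the 15562 genes that passed the filter, whose median level was lower (3.91 against 5.78 log2 CPM). The least variable member was Atp5f1a, the alpha subunit of the catalytic head of ATP synthase, with a spread of 0.0353. The most variable was Ndufa4l2, a hypoxia-inducible relative of Ndufa4, with 0.802 at no more than 18 counts in any library.

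**Figure D1:**
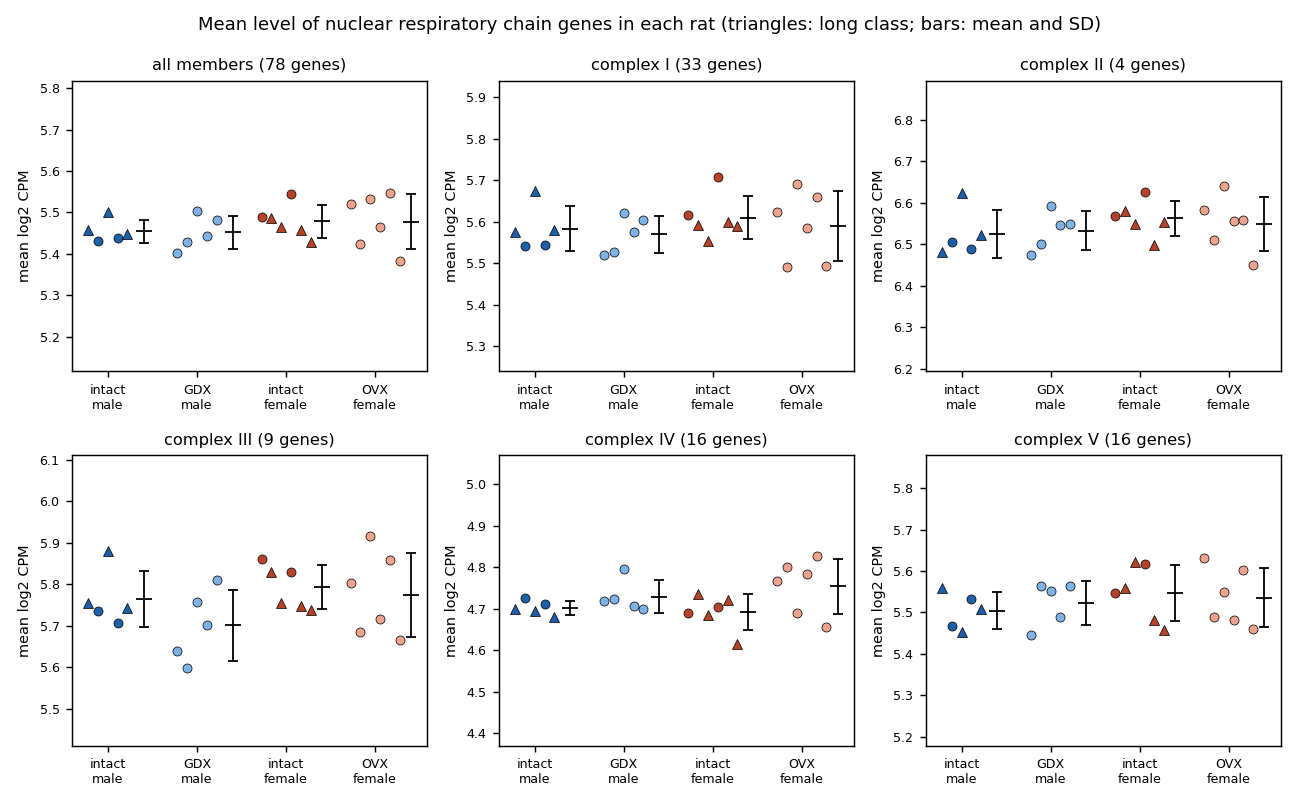
Mean log2 CPM of the members of each complex that passed the filter, 1 point per rat in 4 groups, triangles for the long library class, with the mean and SD of each group beside the points. The groups overlap in every panel, and the mean over all 78 genes stays between 5.38 and 5.55.

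In raw share, the 88 members together took 0.569% to 0.636% of all counts of a library. The share was 0.585%, 0.585%, 0.573%, 0.569% and 0.581% in GDX males 1, 2, 4, 5 and 6, against 0.596%, 0.612%, 0.636%, 0.616% and 0.602% in intact males 1, 2, 3, 5 and 6. In intact females the lowest, median and highest share were 0.586%, 0.609% and 0.623%, and in OVX females 0.591%, 0.606% and 0.614%. The GDX males lie below every rat of the other 3 groups, by little for GDX male 2 (0.585%) beside intact female 6 (0.586%). The mean log2 level of the GDX males lies among those of the other groups. The share is of raw counts, whereas the log2 levels are scaled by TMM factors and give each gene the same weight. A single gene, AY172581.24, took 12.3% to 17.9% of all counts of a library, and so weighs on any raw share. No test was made of either score, or of why they differ. In whole tissue, fewer cells of a type and less RNA per cell cannot be told apart.

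Removal of the testes was followed by small differences in 5 of the 77 members tested, and 4 of these were lower in GDX males. In this comparison 13.4% of all 14931 genes tested had an adjusted p under 0.1 (edgeR's quasi-likelihood test with Benjamini-Hochberg adjustment), 6.58% lower and 6.78% higher, beside 6.49% of the members. The 4 that fell were Uqcrc1, Atp5f1b, Atp5mc3 and Atp5mc1, and the member that rose was Ndufa12. With 1 male left out the count was 3 to 6, while 1202 to 2446 of all genes were called, and it was 3 without GDX male 2, GDX male 5, intact male 1 or intact male 6. The median log2 fold change of the members, GDX minus intact, was -0.021, beside 0.0021 over all genes tested, with 33 members above 0 and 44 below. At an unadjusted p under 0.05 there were 11 members (14.3%) beside 23.8% of all genes. Of the 11, 10 were lower, beside 1790 of the 3549 genes at that threshold. As a share of all tested, that is 10 of 77 members beside 12% of genes, which are close. The 95% interval of the log2 fold change lay within 0.3 on either side of 0 for 69 of the 77 members, beside 6668 of the 14931 genes. The members' median level was higher (5.78 against 3.91 log2 CPM), and the part of level in interval width was not tested. The 8 members with wider or shifted intervals were Ndufa12, Uqcr10, Cox4i2, Cox6a2, Atp5mc1, Atp5mg, Atp5md and Atp5pb.

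**Figure D2:**
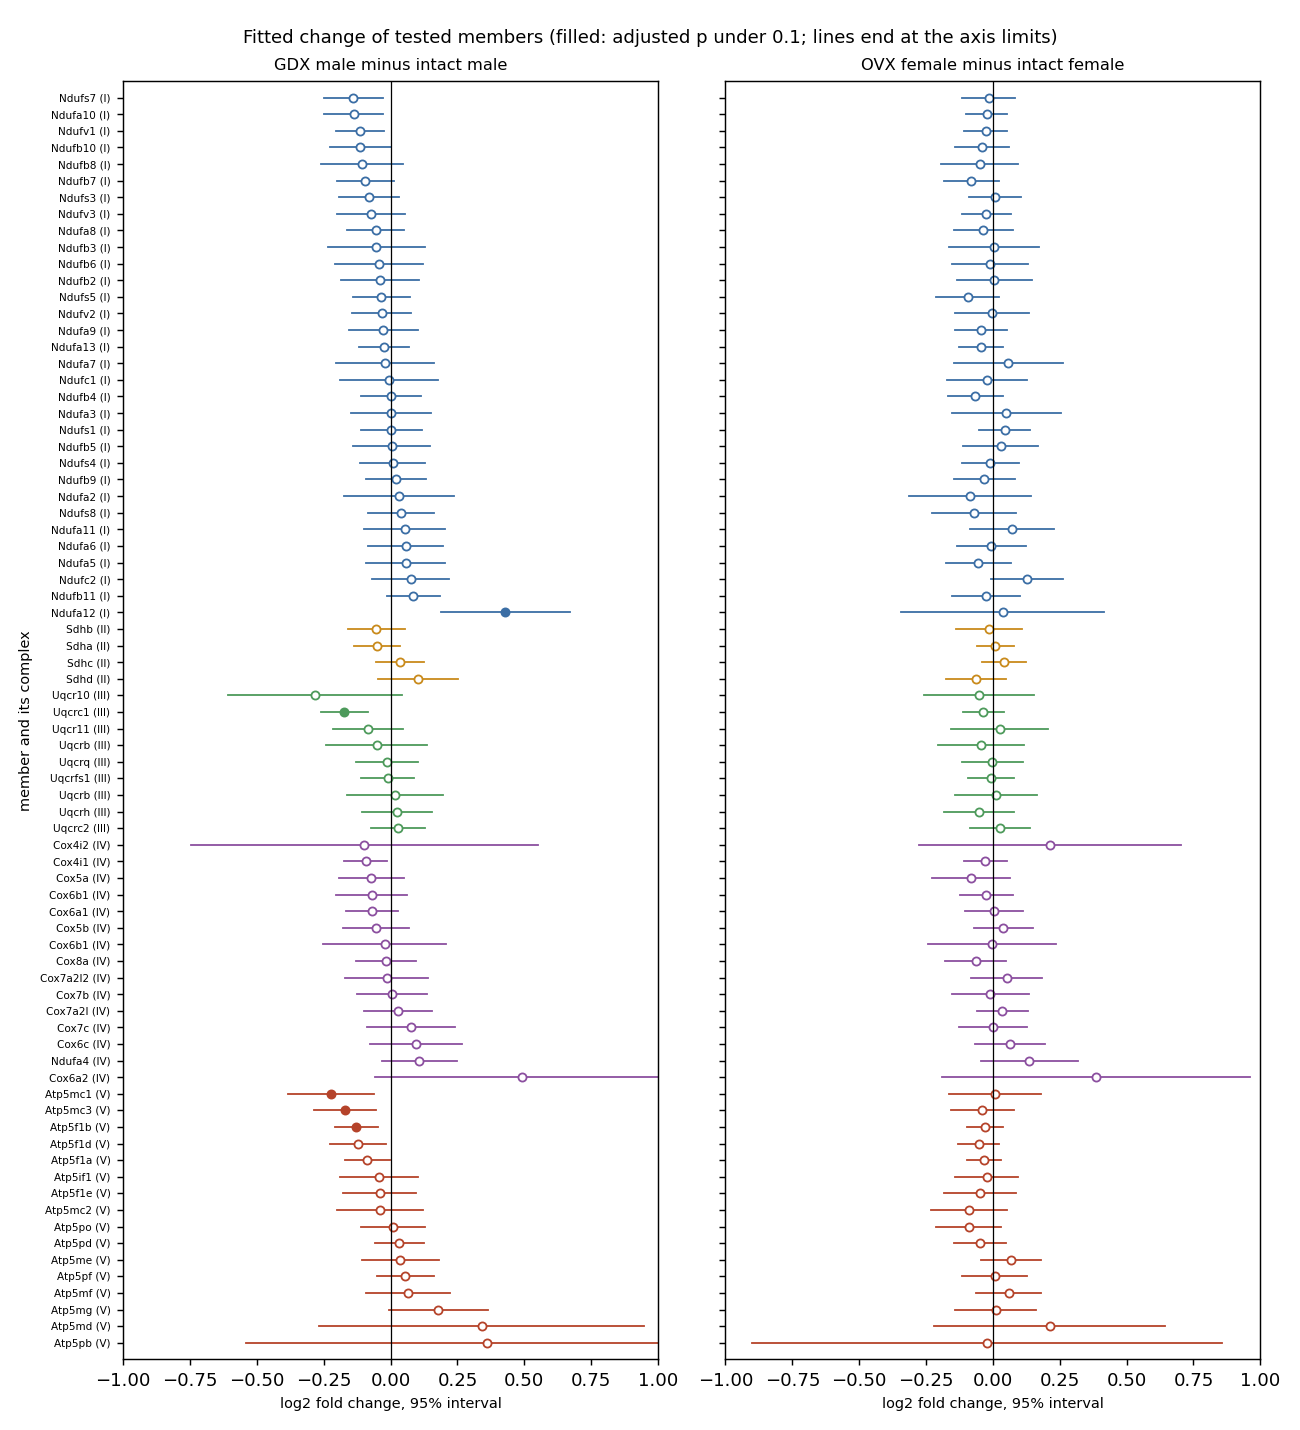
Log2 fold change with its 95% interval for members tested in both sexes, GDX minus intact males on the left and OVX minus intact females on the right, coloured by complex, with filled points for an adjusted p under 0.1. There are 5 filled points on the left and 0 on the right, and most intervals cross 0.

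Within the short library class the fit is thinner, with 5 GDX males against intact males 2 and 5. There 2.83% of 15553 genes were called and 0 of 78 members by edgeR, the smallest adjusted p of a member being 0.123, with 3 members and 17.8% of genes at an unadjusted p under 0.05. The median of the members was 0.020 in that fit, with 47 of 78 above 0. With the class as a term over all 10 males, 5.33% of genes were called and 1 member, Uqcrc1. The median log2 fold change of the members is thus on the other side of 0, by a similar small amount, once the class is taken into account. All GDX libraries are short, so both fits rest on intact males 2 and 5 and are not separate checks.

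The female comparison gave 0 of 77 members. OVX and intact females differed in 5 of 14910 genes (0.0335%) by edgeR at an adjusted p under 0.1, and at an unadjusted p under 0.05 in 10.2% of genes but in 0 members. DESeq2 called 174 genes and 0 members. The median of the members was -0.014, beside 0.0025 over all genes, with 30 members above 0 and 47 below. For 70 of the 77 members the 95% interval lay within 0.3 of 0, beside 8598 of all genes, whose median level was lower. In the short class alone, with intact females 1 and 4 on the other side, 0.0447% of genes and 0 of 79 members were called, with 5 members (1 higher, 4 lower) and 6.24% of genes at an unadjusted p under 0.05, and the median was -0.060 with 15 members above 0 and 64 below. With the class as a term 0.0201% of genes and 0 members were called by edgeR, with 6 members, all lower, and 7.14% of genes at an unadjusted p under 0.05. The OVX difference in both fits rests on the 2 short-class intact females, which had the highest mean levels of the members in their group (5.49 and 5.54 log2 CPM).

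The difference between the sexes in their response was tested as an interaction over all 22 rats. It was called by edgeR for 18 of 15562 genes (0.116%) and for 0 of 78 members, at a median of -0.014 (-0.011 with the class as a term and 0.070 in the short class alone), with 2 members (Uqcrc1 and Atp5f1b) and 11.6% of genes at an unadjusted p under 0.05, and DESeq2 likewise called 0 members. So a difference called in males and not in females is not shown to differ between them for any member. Intact males and intact females differed in 4.01% of 14937 genes and in 0 of 77 members by edgeR, at a median of -0.027 for male minus female (-0.026 with the class as a term and -0.10 in the short class alone), with 5 members and 15.5% of genes at an unadjusted p under 0.05. GDX males and OVX females differed in 0.232% of 15084 genes and in 0 of 78 members, at a median of -0.021, with 2 members and 9.37% of genes at an unadjusted p under 0.05. DESeq2 called 0 members in both. The short class holds 2 intact males and 2 intact females, and the medians given for it rest on these on the intact side. In intact rats the long and the short class, with sex as a term, differed in 0% of 15723 genes and in 0 of 78 members, at a median of -0.0091, with 3 members and 7.75% of genes at an unadjusted p under 0.05, and DESeq2 called 59 genes and 0 members.

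Complex I oxidizes NADH. Its 33 tested members had a median log2 fold change of -0.023 after GDX, with 14 above 0, and of -0.023 after OVX, with 10 above 0. The medians were 0.021, with 22 above 0, and -0.082, with 5 above 0, when the class was a term, so the male median turns and the female one is larger. The intact side of these class-term values, here and for the other complexes, rests on 2 short-class rats of each sex. Ndufv1, the flavin-bearing subunit that accepts electrons from NADH, stood at 96.6, 96.8, 99.8, 93.8 and 93.0 CPM in intact males 1, 2, 3, 5 and 6. In GDX males 1, 2, 4, 5 and 6 it stood at 92.1, 87.8, 84.0, 93.6 and 85.7 CPM. All GDX males but rat 5 lie below all intact males, and the log2 fold change of -0.11 ± 0.043 (SE) was not called (adjusted p 0.118 in edgeR), being -0.10 in the short class alone. It was called by edgeR in 1 fit over all 22 rats (adjusted p 0.0701) and without GDX male 1 (-0.13, adjusted p 0.0819). In females it was -0.026 ± 0.038, and -0.0098 with the class as a term. Ndufs1, the largest iron-sulfur subunit, differed by 0.0031 ± 0.054 between the male groups and by 0.044 ± 0.045 between the female groups, and by 0.037 ± 0.072 and -0.027 ± 0.060 with the class as a term.

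Ndufa12, an accessory subunit of the arm that binds NADH, had the largest fitted change of any member called. It was read at 13.9, 12.5, 10.6, 12.3 and 14.6 CPM in intact males 1, 2, 3, 5 and 6 and at 13.5, 15.4, 19.7, 17.7 and 19.7 CPM in GDX males 1, 2, 4, 5 and 6. Only GDX male 1 falls inside the range of the intact males. The log2 fold change was 0.43 ± 0.11 (adjusted p 0.0304 in edgeR), and 0.47 in the short class alone (adjusted p 0.140). In 1 fit over all 22 rats it was 0.43 and not called (adjusted p 0.137). With the meninges and fibroblast or the pan-neuronal marker level as a term it was 0.20 and 0.28, and not called (adjusted p 0.920 and 0.941 in edgeR). Almost no gene was called in either of these fits (8 of 14931 in the first), so the lost call is not particular to Ndufa12. In females it was 0.037 ± 0.18 (0.16 ± 0.26 with the class as a term), and the interaction was 0.40 ± 0.24 (adjusted p 0.550). Intact females lay at 12 to 14.1 CPM except rat 6, at 26.7, and OVX females at 10.2 to 19.6. That 1 rat raises the intact female level, so the small female value and the interaction depend on it. The within-group spread of Ndufa12, 0.311, includes that rat and was the highest of the 33 tested genes of complex I. Among the other accessory subunits the smallest adjusted p after GDX was that of Ndufa10, at -0.14 ± 0.052 (adjusted p 0.121), but it was -0.038 in the short class alone and -0.040 with the class as a term. After OVX the ends of the fitted changes in complex I were Ndufs5 at -0.093 ± 0.056 and Ndufc2 at 0.13 ± 0.064, neither of them called. With the class as a term they were at -0.21 ± 0.068 and 0.13 ± 0.093 (adjusted p 0.569 and 0.810).

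Complex II oxidizes succinate and links the chain to the tricarboxylic acid cycle. All 4 of its subunits were tested and 0 were called in any of the 6 comparisons, in which 0% to 13.4% of all genes were called. Sdha, which carries the flavin, had a lowest, median and highest level of 273, 282 and 289 CPM in intact males and of 263, 270 and 281 in GDX males. In intact females these were 267, 279 and 289 CPM, and in OVX females 270, 278 and 292 CPM. The groups overlap, and the log2 fold changes were -0.050 ± 0.040 in males and 0.0088 ± 0.033 in females. Sdhb, the iron-sulfur subunit, differed by -0.054 ± 0.050 and -0.014 ± 0.058. Sdha was, with the class as a term, at -0.052 ± 0.054 and -0.030 ± 0.046, and Sdhb at -0.020 ± 0.067 and -0.069 ± 0.081. Sdhc, a membrane anchor, had fitted differences of male minus female of -0.10 ± 0.042 in intact rats and -0.10 ± 0.039 after gonadectomy, on different rats, and neither was called (adjusted p 0.245 and 0.403 in edgeR).

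Complex III hands electrons from ubiquinol to cytochrome c. Its 9 tested members had medians of -0.014 after GDX and -0.0070 after OVX, with 3 above 0 in each. A class term put these at 0.044, with 5 above 0, and at -0.059, with 0 above 0, so the male median turns, on 2 short-class intact rats per sex. Uqcrc1, a core subunit on the matrix side, was the member with the smallest adjusted p. In intact males 1, 2, 3, 5 and 6 it stood at 129, 136, 129, 128 and 126 CPM, and in GDX males 1, 2, 4, 5 and 6 at 117, 116, 112, 109 and 119 CPM. The male groups do not overlap, in a comparison where 13.4% of all genes were called. The log2 fold change was -0.17 ± 0.041 (95% interval -0.26 to -0.085, adjusted p 0.0194 in edgeR). It was -0.20 ± 0.059 in the short class alone (adjusted p 0.123) and -0.20 with the class as a term (adjusted p 0.0755). With the meninges and fibroblast or the pan-neuronal marker level as a term it was -0.15 and -0.064, and not called (adjusted p 0.836 and 0.976 in edgeR). Almost no gene was called in either of these fits (8 of 14931 in the first), so the lost call is not particular to Uqcrc1. Intact females had 118, 123 and 127 CPM as lowest, median and highest and OVX females 112, 121 and 125, with a log2 fold change of -0.035 ± 0.037 (-0.034 with the class as a term). The interaction was -0.13 ± 0.051 (adjusted p 0.291).

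The partner core subunit Uqcrc2 differed by 0.029 between the male groups (0.066 with the class as a term), and Uqcrfs1, the Rieske iron-sulfur protein that donates electrons to cytochrome c1, by -0.011 ± 0.046 in males and -0.0070 ± 0.041 in females (0.045 and -0.023 with the class as a term). The lowest fitted value in males was that of Uqcr10, a small membrane subunit, at -0.28 ± 0.15 (adjusted p 0.282), and at -0.34 ± 0.20 with the class as a term. Its level of 4.22 CPM in GDX male 2 lies far below the 6.91 to 7.67 CPM of the other GDX males, and the rest overlap with the intact males.

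**Figure D3:**
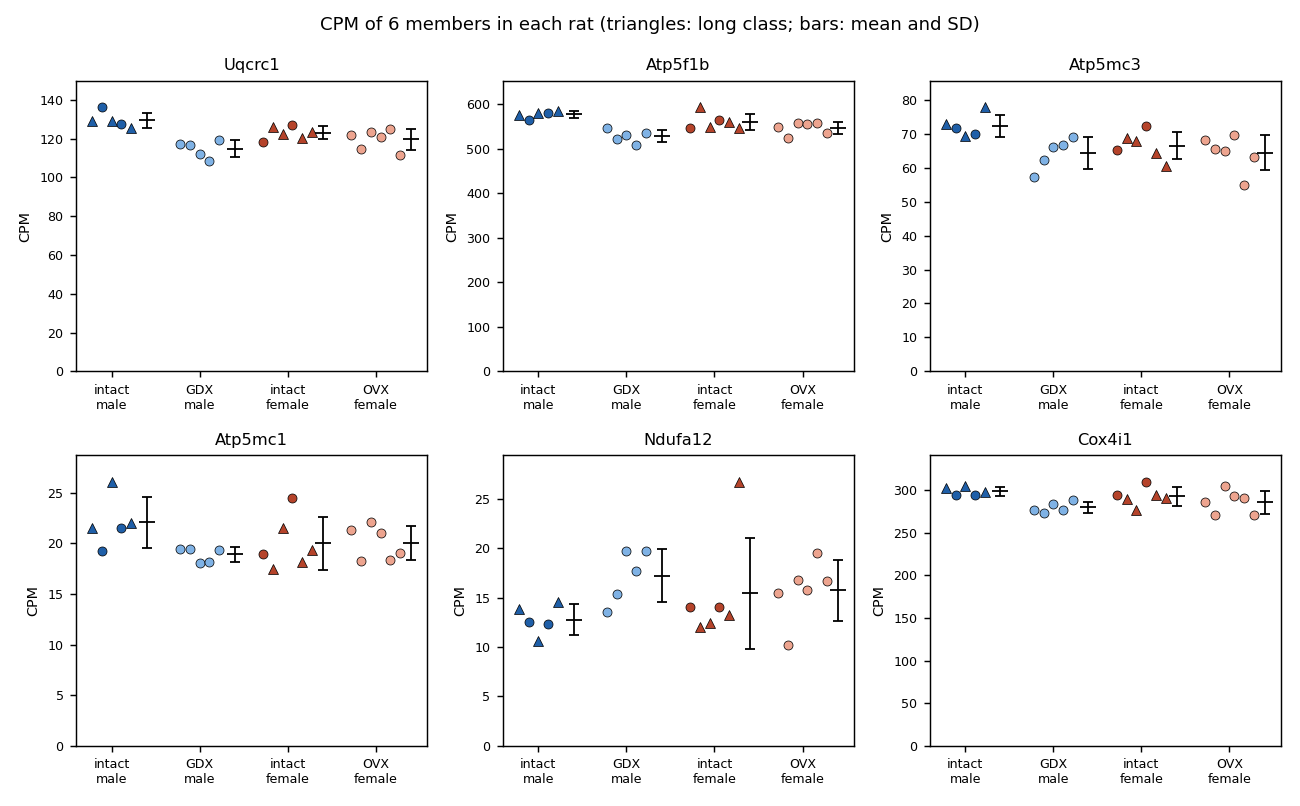
CPM of Uqcrc1, Atp5f1b, Atp5mc3, Atp5mc1, Ndufa12 and Cox4i1 in each rat, 1 point per rat in 4 groups, triangles for the long library class, with mean and SD. Uqcrc1 lies between 109 and 119 CPM in GDX males and between 126 and 136 in intact males, and Cox4i1, called by DESeq2 and not by edgeR, is drawn beside the 5 members called by edgeR.

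Complex IV reduces oxygen to water. By edgeR 0 of its 15 tested members were called in males, where 13.4% of all genes were, or in females, where 0.0335% were. Their medians were -0.017 after GDX, with 6 above 0, and 0.0042 after OVX, with 9 above 0. Both turn when the class is a term, to 0.012, with 10 above 0, and -0.025, with 4 above 0, again on 2 short-class intact rats per sex. Cox4i1, the common form of the nuclear subunit that binds ATP, was read at 302, 294, 305, 294 and 298 CPM in intact males 1, 2, 3, 5 and 6 and at 276, 273, 284, 277 and 289 CPM in GDX males 1, 2, 4, 5 and 6. The male groups do not overlap, but the log2 fold change of -0.093 ± 0.037 was not called (adjusted p 0.142 in edgeR), while DESeq2 did call it (adjusted p 0.0441), and it was -0.070 in the short class alone. In females it was -0.028 ± 0.038, and -0.075 ± 0.053 with the class as a term. Cox5a differed by -0.072 ± 0.057 in males and -0.081 ± 0.069 in females, and Ndufa4, which binds the outside of the complex, by 0.11 ± 0.066 and 0.14 ± 0.086. Cox5a was at -0.060 and -0.059 with the class as a term, and Ndufa4 at 0.15 ± 0.089 in males and -0.0090 ± 0.11 in females, so its fitted difference in females is close to 0 once the class is a term.

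Several subunits of complex IV exist as paired isoforms, of which the liver or common form dominates in most tissues. The common forms Cox6a1 and Cox8a, and Cox7a2l, a factor that joins complexes III and IV, had log2 fold changes of -0.069, -0.017 and 0.027 after GDX and 0.0042, -0.065 and 0.035 after OVX, none of them called. In the fits with a class term they were at -0.012, 0.012 and 0.032 after GDX and at -0.0047, -0.15 and 0.088 after OVX. The alternative forms were close to the limit of detection. Cox4i2, the form of oxygen-sensing and perivascular cells, had 12 to 36 counts per library, and Cox6a2, a heart and muscle form, had 12 to 43. Cox6a2 had the highest fitted change of any member in both gonadectomy comparisons, 0.49 ± 0.26 in males (adjusted p 0.267) and 0.39 ± 0.27 in females (adjusted p 0.682), with intervals that include 0, and it was 0.28 and 0.36 in the short class alone. Skeletal muscle markers summed to 277, 190 and 213 CPM in OVX females 4 and 1 and intact male 2, and to at most 122 CPM in every other rat. Cox6a2 had 43, 29 and 24 counts in those 3 rats, and a link was not tested. The muscle forms Cox7a1 and Cox8b had a median of 0 and 1 count and a highest of 2 and 7, and Cox7a1 was at 0 in 18 of 22 libraries. Cox6b2 had 0 to 10 counts, and Cox7b2 and Cox8c, known from testis, had 1 count each over all libraries. At 3 counts or fewer the depth allows no statement on a difference. Cox7a2, of which Cox7a2l is the relative, was not analysed here.

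Complex V makes ATP, and 3 of its 16 tested members were called in males, where 13.4% of all genes were called, and 0 in females, where 0.0335% were. The medians were -0.015 after GDX, with 8 members on either side of 0, and -0.026 after OVX, with 6 above 0. They were -0.0059 with the class as a term, with 8 above 0, and -0.061, with 4 above 0, on 2 short-class intact rats per sex. After OVX 3 members were then at an unadjusted p under 0.05, beside 7.14% of all genes, and 0 were called by edgeR. These were Atp5po at -0.20 ± 0.071, Atp5mc2 at -0.20 ± 0.088 and Atp5f1e at -0.17 ± 0.079 (adjusted p 0.594, 0.692 and 0.697). After GDX Atp5mg was higher with the class as a term, at 0.31 ± 0.11, and not called (adjusted p 0.148 in edgeR). It was 0.31 in the short class alone (adjusted p 0.189) and 0.18 ± 0.087 in the pooled fit. Atp5f1b, the beta subunit that holds the catalytic sites, stood at 576, 565, 581, 581 and 586 CPM in intact males 1, 2, 3, 5 and 6 and at 546, 522, 531, 508 and 535 CPM in GDX males 1, 2, 4, 5 and 6. These groups do not overlap, and the log2 fold change was -0.13 ± 0.038 (adjusted p 0.0483 in edgeR). In the short class alone it was -0.12 (adjusted p 0.303), and without GDX male 5 it was -0.11 (adjusted p 0.126). With the meninges and fibroblast or the pan-neuronal marker level as a term it was -0.074 and -0.094, and not called (adjusted p 0.913 and 0.928 in edgeR). Almost no gene was called in either of these fits (8 of 14931 in the first), so the lost call is not particular to Atp5f1b. Intact females had 547, 554 and 593 CPM as lowest, median and highest and OVX females 525, 552 and 558, with a log2 fold change of -0.030 ± 0.032 (-0.021 with the class as a term), and the interaction was -0.094 ± 0.043 (adjusted p 0.395). Atp5f1a, the alpha subunit, differed by -0.086 ± 0.039 in males (adjusted p 0.193 in edgeR, 0.0774 in DESeq2) and by -0.033 ± 0.031 in females, and in the short class alone by -0.051 and -0.070. In 1 fit over all 22 rats edgeR called its male difference (-0.087, adjusted p 0.0769).

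Atp5mc1, Atp5mc2 and Atp5mc3 encode the same mature c subunit of the membrane ring with different import peptides. Atp5mc3 stood at 72.7, 71.5, 69.4, 69.9 and 77.7 CPM in intact males 1, 2, 3, 5 and 6 and at 57.1, 62.2, 66.1, 66.6 and 69.1 CPM in GDX males 1, 2, 4, 5 and 6. Atp5mc1 stood at 21.5, 19.3, 26.1, 21.5 and 22 CPM in the same intact males and at 19.5, 19.5, 18.1, 18.2 and 19.3 CPM in the same GDX males. The male groups of Atp5mc3 lie side by side without overlap, and those of Atp5mc1 overlap through intact male 2. Log2 fold changes were -0.17 ± 0.055 for Atp5mc3 (adjusted p 0.0708 in edgeR) and -0.22 ± 0.076 for Atp5mc1 (adjusted p 0.0864), and -0.14 and -0.11 in the short class alone (adjusted p 0.367 and 0.549). With the meninges and fibroblast marker level as a term they were -0.27 and -0.16 (adjusted p 0.769 and 0.913 in edgeR). The pan-neuronal level as a term gave -0.28 for both (adjusted p 0.897 for each). Almost no gene was called with either marker level as a term (8 of 14931 with the meninges and fibroblast level). Atp5mc2 differed by -0.038 ± 0.075 (-0.047 with the class as a term). After OVX the values were -0.039 ± 0.055 for Atp5mc3 and 0.0078 ± 0.081 for Atp5mc1, and with the class as a term -0.087 ± 0.078 and -0.11 ± 0.11 (adjusted p 0.850 and 0.871). The pooled interactions of Atp5mc3 and Atp5mc1 were -0.13 ± 0.081 and -0.23 ± 0.11 (adjusted p 0.573 and 0.455). Atp5mc3 was not called without GDX male 1 or 2 or intact male 1, 2 or 6 (adjusted p up to 0.143), and Atp5mc1 was called only without GDX male 1 or intact male 2 among the 10 fits with 1 male left out (adjusted p up to 0.180 in the others). Atp5if1, the inhibitor that stops the enzyme from running backwards, differed by -0.042 ± 0.068 in males and -0.023 ± 0.055 in females, and by -0.032 and -0.098 with the class as a term.

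The comparison of intact males with intact females shares its males with the GDX comparison. In it, Uqcrc1, Atp5f1b, Atp5mc3 and Atp5mc1 stood at 0.077 ± 0.034, 0.049 ± 0.032, 0.12 ± 0.047 and 0.14 ± 0.091 for male minus female, and Ndufa12 at -0.26 ± 0.18, none of them called (adjusted p 0.296, 0.528, 0.214, 0.492 and 0.542 in edgeR). Between GDX males and OVX females, a comparison that shares its GDX males with the one the genes were chosen from, the same 5 genes stood at -0.057, -0.046, -0.0041, -0.081 and 0.14, again with 0 called.

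Some members had far fewer reads than others of the same complex. Ndufa1, an accessory membrane subunit of complex I, had 1 to 9 counts in 21 libraries and 213 in OVX female 6. Ndufs6 had 0 to 4 counts, Atp5pb, the main subunit of the peripheral stalk of ATP synthase, had 2 to 36, and Atp5md, a small membrane subunit, had 9 to 38. All are subunits that cells generally need. In the RefSeq gene table (assembly GRCr8), 84 of the 85 symbols were found, Atp5md being listed there under the name Atp5mk, and 38 of them have pseudogene copies by name, 87 in all, of which 1, Cox6c-ps1, is in the count table, is counted among the 88 members and the 22 of complex IV by its symbol, and was at 0 in all 22 libraries. Ndufa1 and Ndufs6, which did not pass the filter, have 1 named copy each. Atp5pb with 3, Atp5md with 0 and Atp5mg with 8 passed it. How reads that match a gene and a copy were counted is not given in the sources used here, so levels of such members are uncertain. Of the 5 members called in males, Atp5f1b and Atp5mc1 have 2 named copies each and Ndufa12 has 1, while Uqcrc1 and Atp5mc3 have 0.

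**Figure D4:**
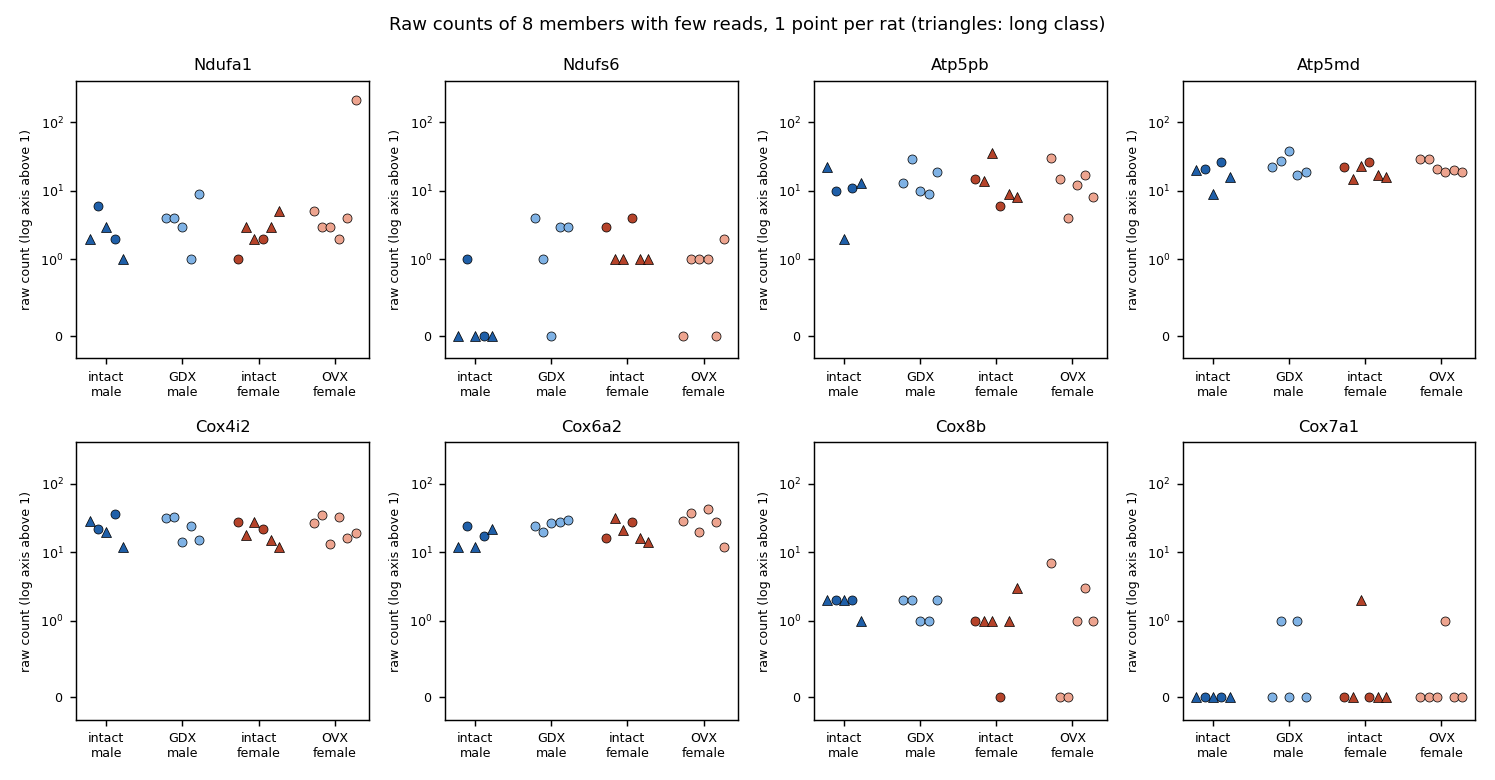
Raw counts of 8 members with few reads, 1 point per rat in 4 groups on a log axis above 1, triangles for the long library class. Ndufa1 reaches 213 counts in OVX female 6 and at most 9 in every other library, and Cox7a1 is at 0 in 18 of 22.

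Promoters of the members were searched for 3 motif cores and the TATA letters. RefSeq promoter windows of 300 bases around the gene start (GRCr8) were found for 73 of the 85 symbols. The core of the NRF1 motif, GCGCATGC or its reverse complement GCATGCGC, was in 12.3% of these windows, beside 2.47% of the 33469 windows of all genes. The core of ETS factors such as GABP, CCGGAAG or CTTCCGG, was in 26.0% beside 8.75%, and the core of the YY1 motif, AAGATGGC or GCCATCTT, in 21.9% beside 3.17%. None of the 3 cores was in 40 of the 73 windows. The letters TATAAA or TTTATA were in 9.59% beside 14.2%. Members' windows were also richer in G and C (median 55.7% beside 51.7%), which alone changes how often such letters occur, and the 2 strand forms of the NRF1 core overlap where the full palindrome is present. The windows of 4 members are shown, 3 called in males by edgeR and Cox4i1, called by DESeq2 and not by edgeR, on the strand of the gene with matches to the 3 motif cores in capitals.
Uqcrc1 (chr8:118467973-118468272, plus strand): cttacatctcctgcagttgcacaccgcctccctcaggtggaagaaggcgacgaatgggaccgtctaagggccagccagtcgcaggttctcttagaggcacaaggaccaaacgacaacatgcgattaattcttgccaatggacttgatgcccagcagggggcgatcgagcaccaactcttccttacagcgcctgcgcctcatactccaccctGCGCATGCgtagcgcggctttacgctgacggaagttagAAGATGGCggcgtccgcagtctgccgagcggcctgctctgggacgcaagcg
Atp5f1b (chr7:1099808-1100107, plus strand): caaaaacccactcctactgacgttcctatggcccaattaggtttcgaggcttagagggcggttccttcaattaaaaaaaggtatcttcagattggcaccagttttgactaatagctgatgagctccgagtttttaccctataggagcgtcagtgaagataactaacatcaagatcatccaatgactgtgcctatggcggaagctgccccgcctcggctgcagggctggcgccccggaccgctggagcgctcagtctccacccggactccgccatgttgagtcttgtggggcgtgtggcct
Ndufa12 (chr7:30658066-30658365, plus strand): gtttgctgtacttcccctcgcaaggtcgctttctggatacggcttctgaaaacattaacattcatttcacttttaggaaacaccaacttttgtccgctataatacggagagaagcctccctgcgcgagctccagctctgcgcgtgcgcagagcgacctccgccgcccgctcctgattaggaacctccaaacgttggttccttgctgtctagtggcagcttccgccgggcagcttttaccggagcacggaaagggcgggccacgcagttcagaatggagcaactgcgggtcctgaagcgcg
Cox4i1 (chr19:65630133-65630432, plus strand): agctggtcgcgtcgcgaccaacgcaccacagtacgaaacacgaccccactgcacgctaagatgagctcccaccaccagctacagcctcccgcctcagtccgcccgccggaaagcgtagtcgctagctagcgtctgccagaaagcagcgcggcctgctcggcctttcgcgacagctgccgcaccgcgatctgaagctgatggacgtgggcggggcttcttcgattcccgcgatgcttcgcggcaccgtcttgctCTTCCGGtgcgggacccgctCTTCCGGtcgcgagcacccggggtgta
The window of Uqcrc1 holds 1 NRF1 core and 1 YY1 core, that of Cox4i1 holds 2 ETS cores, and those of Atp5f1b and Ndufa12 hold none of the 3. The windows of Atp5mc1 and Atp5mc3 hold none either, so no core is shared by the 5 members called by edgeR. The windows of Cox4i1 and Atp5f1a, called in males by DESeq2 and not by edgeR's fit of the male groups, both hold the ETS core. A match describes the letters in the window and is not a measured binding site.

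Other genes around the chain were read from lists, in males beside 13.4% of all genes called, 6.58% lower and 6.78% higher. Of 47 tested assembly factors, 3 fell after GDX and 0 rose, at a median of -0.010. These were Atpaf1, which assembles the catalytic head of complex V, at -0.20 ± 0.046 (adjusted p 0.0183 in edgeR), Cox11, which brings copper to complex IV, at -0.20 ± 0.062 (adjusted p 0.0562), and Cox14 at -0.22 ± 0.077 (adjusted p 0.0985). Of 6 subunits and carriers outside the symbol rule, Ndufab1, the acyl carrier protein of complex I, fell (-0.16 ± 0.052, adjusted p 0.0628), and Cyc1, cytochrome c1, was at -0.14 ± 0.062 (adjusted p 0.169). The 13 protein genes of the mitochondrial genome were at a median of 0.15 after GDX and -0.0085 after OVX, with 0 called in either. Of 17 genes of pyruvate dehydrogenase and the tricarboxylic acid cycle 2 were called in males, Idh3g lower (-0.16 ± 0.041, adjusted p 0.0298) and Suclg2 higher (0.22 ± 0.057, adjusted p 0.0269). Among 14 regulators of mitochondrial genes, 1 was called in males, the coactivator Ppargc1a, at -0.23 ± 0.063 (adjusted p 0.0375). Of 19 glycolysis and lactate genes 7 were called in males, 2 higher and 5 lower, among them Hk2 at 0.30 ± 0.066 and Aldoa at -0.17 ± 0.043 (adjusted p 0.0143 and 0.0244). In females 0 genes of these lists were called by edgeR, beside 0.0335% of all genes. At an unadjusted p under 0.05 there were 3 of 46 assembly factors and 0 of 14 regulators, beside 10.2% of all genes. Proteins of cytosolic ribosomes, another large housekeeping set, had 18 of 92 genes called in males, all higher, at a median of 0.13. Of the same 92, 12 were called in males with the class as a term, where 5.33% of all genes were, and all 12 were higher. In that fit 1 of the 14 regulators and 1 of the 19 glycolysis and lactate genes were also called, both lower. By edgeR 0 of the 47 assembly factors, 0 of the 6 subunits and carriers and 0 of the 17 genes of the cycle were called in that fit, with 3, 1 and 3 at an unadjusted p under 0.05. The medians of the mitochondrial genome's 13 genes were then 0.25 after GDX and -0.094 after OVX, with 0 called by edgeR and 6 and 0 at an unadjusted p under 0.05. The share of all genes at that threshold in the male fit is not given here, so the counts of 3, 1, 3 and 6 cannot be weighed against it.

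Markers of cell types moved between the male groups, where 13.4% of all genes were called, 6.58% lower and 6.78% higher. Of 13 pan-neuronal markers 8 were called and all 8 were lower after GDX, at a median of -0.22, beside -0.021 for the 77 members. Their summed level was 5167, 5050, 5013, 4942 and 5349 CPM in intact males 1, 2, 3, 5 and 6 and 4493, 4610, 4522, 4081 and 4646 CPM in GDX males 1, 2, 4, 5 and 6, without overlap, and the most abundant was Map2. In the meninges and fibroblast list 16 of 16 tested genes were called, all higher, at a median of 1.41. Their summed level was 777, 556, 578, 486 and 425 CPM in the same intact males and 749, 830, 1252, 2085 and 1469 CPM in the same GDX males, overlapping at 1 rat of each group, and the most abundant was Ptgds. Ogn of this list had a mean under 3 counts, and 0 genes of either list were at 0 throughout. With the meninges and fibroblast level as a term 0.0536% of genes and 0 members were called by edgeR in males, with 5 members and 5.94% of genes at an unadjusted p under 0.05. Endothelial markers were called higher in 8 of 9, pericyte and smooth muscle markers higher in 4 of 8, motor neuron markers lower in 3 of 13 and oligodendrocyte markers higher in 1 of 10. Erythroid markers were called higher in 4 of 4, Schwann cell markers higher in 2 of 6 and microglia markers higher in 1 of 9, with 0 of 6 ependymal and 0 of 5 skeletal muscle markers called by edgeR and 0 of either at an unadjusted p under 0.05. Of 9 astrocyte markers 2 were called higher and 1 lower, and their summed level was 5868, 6242, 6459, 6492 and 6107 CPM in intact males and 7239, 7318, 6964, 7947 and 7329 CPM in GDX males, without overlap. The summed level of pericyte and smooth muscle markers was 100 to 133 CPM in intact males and 141 to 168 CPM in GDX males, also without overlap. In females 0.0335% of all genes were called by edgeR and 10.2% were at an unadjusted p under 0.05. There 0 of the 13 pan-neuronal and 0 of the 16 meningeal markers were called, with 4 and 0 at an unadjusted p under 0.05. Of 9 endothelial markers 1 was called higher. Of 13 motor neuron markers 0 were called, with 11 at an unadjusted p under 0.05 and a median of -0.29. Ependymal markers summed to 201 to 210 CPM in intact and 174 to 196 CPM in OVX females, without overlap, with 0 of 6 called and 1 at an unadjusted p under 0.05. With the class as a term 5.33% of all genes were called in males. Of the 13 pan-neuronal markers 4 were called in that fit, all lower, the 13 being at a median of -0.30. So were 10 of 16 meningeal and 2 of 9 endothelial markers, these 12 higher. By edgeR 0 of 13 motor neuron, 0 of 8 pericyte and smooth muscle and 0 of 4 erythroid markers were called in that fit, with 4, 3 and 4 at an unadjusted p under 0.05. The motor neuron markers, 3 of those 4 being higher, had a median of -0.042. The share of all genes at that threshold in this male fit is not given here, so these counts cannot be weighed against it. In females the motor neuron markers had a median of -0.12 in the same kind of fit, with 0 called by edgeR and 1 at an unadjusted p under 0.05. The part of these markers in the differences of the members was not tested.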

How the data were processed

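The authors deposited raw counts of reads per gene in 22 libraries, and all columns of the count table were matched to a rat. The study's methods name trimming, Hisat2 mapping and featureCounts, while the submitters' processing notes name TopHat2 2.0.13, Subread, edgeR, FastQC and Rnor_6.0, so the aligner behind the deposited counts is uncertain. The methods name a stranded total RNA kit for low input, the sample labels Illumina Truseq. Strand, multi-mapping and overlap settings are not given in the sources used here. Library classes and RNA integrity numbers (RIN) were taken from the study's tables.

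Each comparison was fitted on its own groups, the interaction on all 22 rats with 4 group means, and the library class on intact rats with sex as a term. R 4.3.3 and edgeR 4.0.16 were used with filterByExpr, TMM factors, glmQLFit and glmQLFTest, and p-values were adjusted by Benjamini-Hochberg over all genes tested and called at 0.1. CPM were scaled by TMM factors over all rats, with a prior count of 2 for log2 values. Reads carry no molecular identifiers, so intervals describe the spread between rats. Fits were tested on simulated data. The 2 libraries of any pair within a group differed beyond counting noise.

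The members and gene lists were chosen with earlier results of these data known. Members named are those with the smallest adjusted p under 0.1, up to 8 in each direction, central subunits of each complex, isoforms of complex IV and the inhibitor of complex V, and the highest and lowest fitted change. Others (Uqcrc2, Ndufa10, Ndufc2, Sdhc, Atp5mc2, Atp5po, Atp5f1e, Ndufa1, Ndufs6, Cox7b2, Cox8c, Cox6c-ps1 and Atp5mg) were chosen after their values were seen. In other lists up to 3 genes with the smallest adjusted p were named. Alternatives were DESeq2 1.42.0, RLE and upper quartile factors, other filters and thresholds, all rats in 1 fit, library class, RIN, the meninges and fibroblast or pan-neuronal level as a term, short-class libraries alone, blocks by rat number, and the omission of 1 rat at a time.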

Additional observations from a re-analysis of the deposited data

Results flagged for a closer look

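Single rats far from the rest of their group (Dixon's ratio at 95%) were searched among 33 quantities, the CPM of the members named by rule that passed the filter, that of Ndufa1, the mean log2 CPM of all members and of each complex, and the members' share of counts. Of 132 groups 13 stood out, while chance gives about 1 in 20, or 6.6. That number does not apply strictly, since Ndufa1 was added after its values were seen and some named members, such as Uqcr10, were chosen for an extreme fitted change.

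Ndufa1 was at 16.6 CPM in OVX female 6, and the next OVX female was at 0.321. Ndufa12 was at 26.7 CPM in intact female 6, the next intact female being at 14.1, and Uqcr10 at 4.22 CPM in GDX male 2, the next GDX male being at 6.91. Other single high values were 593 CPM for Atp5f1b in intact female 2, 52.9 CPM for Cox7a2l and 2.57 CPM for Atp5md in GDX male 4, 2.24 CPM for Atp5pb in intact female 3 and 1.20 CPM for Ndufa4l2 in intact female 5. Low values were 458 CPM for Atp5f1a in OVX female 2 and 0.0748 CPM for Ndufa4l2 in OVX female 3. By complex, intact male 3 stood high in the mean log2 CPM of complex I at 5.67 and of complex III at 5.88, and GDX male 4 in that of complex IV at 4.80. The values of Atp5pb, Atp5md and Ndufa4l2 rest on at most 38 counts. The origin of these values was not tested.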

How the results depend on the processing

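The count of 5 members called in males was within 1.5 times under DESeq2 (7, with 2101 of all genes called beside 1995), RLE and upper quartile factors, no filter (4, with 1754) and a 1 CPM filter. It was 3 at an adjusted p under 0.05 (1264 of all genes), 11 at an unadjusted p under 0.05 (3549), 9 with all 22 rats in 1 fit (2395), where Ndufa12 was not among them (adjusted p 0.137), 1 with the library class as a term (796), 0 in the short class alone (440), 3 with RIN as a term (1262), and 0 with the meninges and fibroblast or the pan-neuronal level as a term, where the median moved to -0.080 and -0.11 and 8 and 0 of all genes were called. Leaving out 1 male gave 3 to 6 members, 1202 to 2446 of all genes and medians of -0.034 to 0.0023. The count was 3 without GDX male 2 or 5 or intact male 1 or 6. Uqcrc1 and Ndufa12 were called in all 10 of these fits, Atp5f1b in 9, Atp5mc3 in 5 and Atp5mc1 in 2, and the sign of these 5 genes was the same under every setting run. Their size was not. Fitted beside the meninges and fibroblast level, log2 fold changes were -0.15 for Uqcrc1, 0.20 for Ndufa12, -0.074 for Atp5f1b, -0.27 for Atp5mc3 and -0.16 for Atp5mc1. Beside the pan-neuronal level they were -0.064, 0.28, -0.094, -0.28 and -0.28 in the same order. Both levels differ between the male groups, the pan-neuronal one without overlap, so these fits cannot separate a member's change from theirs.

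In the other comparisons 0 members were called under every setting but the unadjusted p under 0.05, which gave 2 for the interaction, 5 for intact males against females, 2 for GDX males against OVX females and 3 for the library class. In the short class, with 2 intact males and 2 intact females, the median was -0.060 for females, 0.070 for the interaction and -0.10 for intact males against females. With the pan-neuronal level as a term it was -0.067 for the interaction and 0.046 for intact males against females. The cause was not tested. With 1 rat left out, medians ranged from -0.037 to 0.0089 for females, -0.032 to 0.017 for the interaction, -0.052 to -0.012 for intact males against females, -0.045 to -0.0067 for GDX males against OVX females and -0.028 to 0.023 for the library class, with 0 members called in each.

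With the rat number as a block 2 members and 1274 of all genes were called in males (Uqcrc1 and Atp5mc3 of the members), and 0 members in the other comparisons it was run for. The numbers do not pair the rats: deviations of rats with the same number correlated between -0.11 and 0.063. A median was taken to move when it shifted by more than 0.0463, the spread between rats of the mean level. The library class as a term and the short class alone were not run for GDX males against OVX females, where every library is short, or for the class itself. Members with under about 40 counts per library are limited by depth.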

Other observations

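OVX female 3 had the highest mean log2 CPM of the 22 rats for complex II (6.64) and complex III (5.91), and OVX female 6 the lowest for complex II (6.45) and for all members (5.38). The mean level of the protein genes of the mitochondrial genome was 10.4 ± 0.157 log2 CPM (SD, n = 22), beside a spread of 0.0447 for the mean of the members. These means are over 13 and 78 genes, and a mean over fewer genes can spread more, so single genes are not compared. The summed level of the mitochondrial genome's protein genes ran from 27047 CPM in intact male 5 to 41948 CPM in OVX female 5.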
